A study of Mus musculus with 12 samples.

Results

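The 9 genes described here are glucocorticoid-responsive or encode the receptors for these hormones, namely Nr3c1, Nr3c2, Fkbp5, Tsc22d3, Pdk4, Sult1a1, Cdkn1a, Errfi1 and Zbtb16. They were taken by symbol from a table of 57132 annotated features, and each symbol matched 1 row. Striatal RNA came from 10-month-old C57Bl/6 mice, 6 TAAR5-KO animals without trace amine-associated receptor 5 and 6 wild-type (TAAR5-WT, here WT) littermates. Striatum was what remained of a coronal slice in front of bregma after the cortex had been taken off. Both sexes were used, but no count column is tied to an animal or its sex, and the hour of sampling is not given in the sources used here. The columns are named NK1 to NK6 for TAAR5-KO and NK7 to NK12 for WT. The gene Taar5 itself had between 1 and 6 counts in the libraries labelled TAAR5-KO and between 0 and 2 in those labelled WT. A lower level under the TAAR5-KO label was thus not seen, but at no more than 0.235 CPM these counts are too few to judge the labels. Every direction below follows the labels only.

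Corticosterone, the main glucocorticoid of mice, enters cells freely and binds 2 receptors of the nuclear receptor family. The bound receptors move to the nucleus, attach to glucocorticoid response elements and raise or lower the transcription of nearby genes. Fkbp5, Tsc22d3, Pdk4, Sult1a1, Cdkn1a, Errfi1 and Zbtb16 are known for their response to such hormones in brain and other tissues, and their transcripts are often read as a record of recent hormone exposure.

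The response element is the sequence to which the bound receptors attach, so its occurrences near the gene starts are shown. The core searched was GNACANNNTGTNC, a palindrome that reads the same on both strands, within 5000 bases on either side of the outermost annotated start of each gene in GRCm39. Of the 12604 protein-coding genes tested for expression, 1931 (15.3%) held this core at least 1 time. Among the 9 genes, Fkbp5 held 4 matches and Cdkn1a held 1, whereas the other 7 held none in this window. Windows around other starts of the same genes were not searched in this step. A number of 4 or more was found in 2 of the 12604 genes, Fkbp5 included. The stricter form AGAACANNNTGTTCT, in which every hit also contains the core, was found beside 16 genes (0.127%) and beside none of the 9. The matches are written 5′ to 3′ on the strand of the gene, with the core in capitals. They lie at chr17:28732869-28732897, chr17:28737146-28737174, chr17:28737998-28738026 and chr17:28741094-28741122 for Fkbp5 and at chr17:29313666-29313694 for Cdkn1a.
Fkbp5, intron, 3618 bases after the start: tctctgggGGACACTGTGTTCtgggcagc
Fkbp5, upstream, at −659 from the start: ctcgcccgGGACATTGTGTTCcagcccca
Fkbp5, upstream, at −1511 from the start: ctctccagGCACAGGGTGTCCctaggggt
Fkbp5, upstream, at −4607 from the start: gggaaggaGGACAAAGTGTTCcatgctca
Cdkn1a, intron, 3730 bases after the start: tttggcggGCACAGTATGTTCccagggaa

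In the RefSeq promoter sequences (GRCm38.p6), short windows around annotated starts, 7 of the 9 genes were matched with 11 promoters. None of these held the core, which 0.475% of all 32851 promoters had. At that share a set of 11 promoters would rarely hold a match, so its absence says little about these genes. Of 20 other glucocorticoid target genes that passed the expression filter, 10 had the core in the larger window. These are matches of letters, and occupancy by a receptor was not measured.

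Between the libraries labelled TAAR5-KO and WT, 0 of the 9 genes were differentially expressed. This holds for edgeR's likelihood ratio test with a threshold of 0.1 on the adjusted p (Benjamini–Hochberg), for the edgeR quasi-likelihood test and for DESeq2, which gave no adjusted p for 5 of them. At an unadjusted p under 0.05 the number was also 0 with each of the 3 tools, whereas the likelihood ratio test put 11.9% of all 13902 features tested below that value. Among all features tested, 229 were called, which is 1.65%, so that a list of 9 genes would hold few calls at that background. The libraries of both labels overlapped in CPM (counts relative to the library size scaled by edgeR's TMM factors) for each of the 9, and 1.01% of all features showed no overlap. Differences from the likelihood ratio fit pointed to higher levels in libraries labelled TAAR5-KO for 3 genes and to lower levels for 6, which became 4 and 5 with RLE factors and 0 and 9 on library size alone, where the median of all features was −0.49. On the TMM scale the median of the 9 log2 fold changes was −0.07, and that of all features was −0.01.

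**Figure D1:**
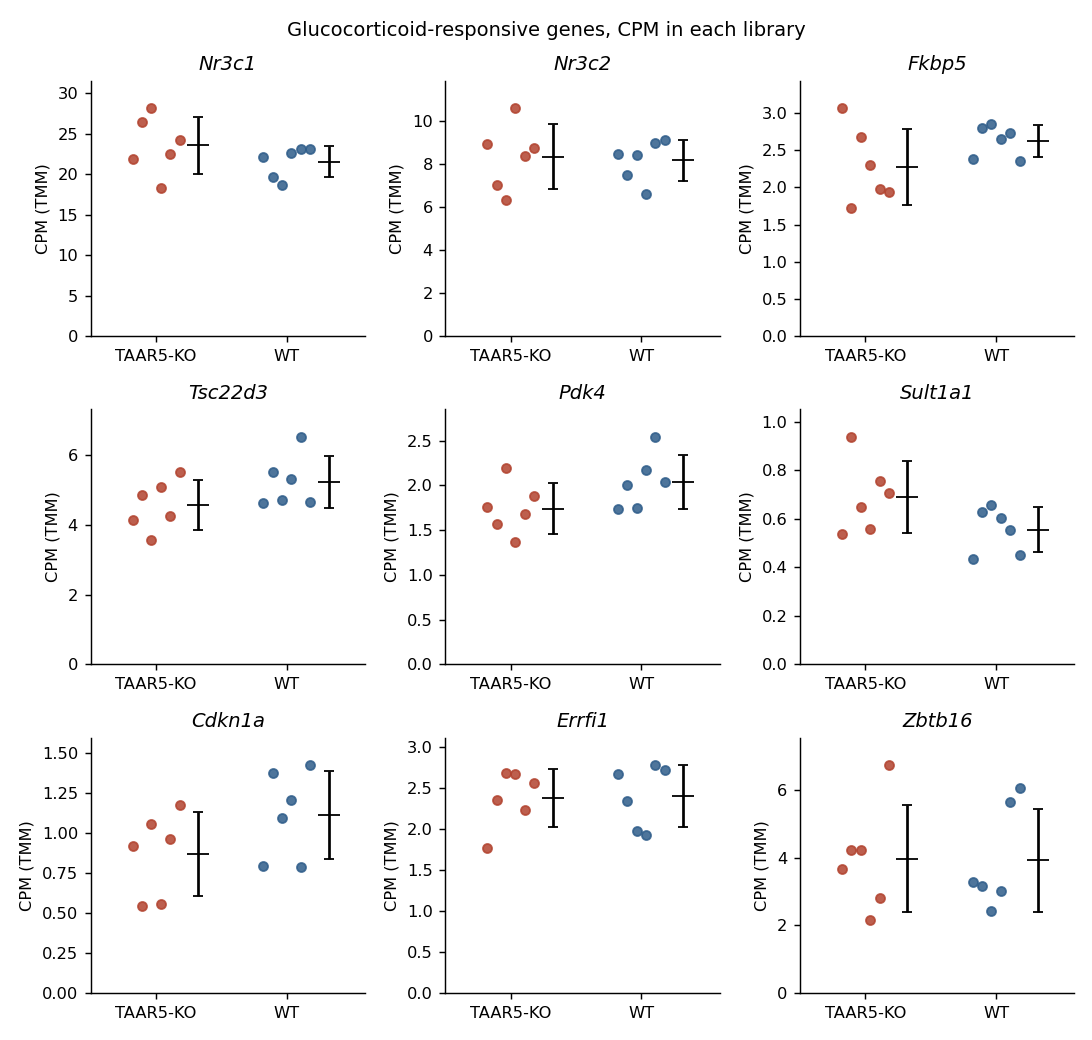
CPM on TMM-scaled library sizes (y axis, from 0) of each gene in the 6 libraries labelled TAAR5-KO (red) and the 6 labelled WT (blue), 1 point per library, with the mean and SD as a black bar. The points of both labels overlap in all 9 panels, and Zbtb16 has the widest spread, from 2.17 to 6.74 CPM.

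Compared per length of merged exons, Nr3c1 had the highest level of the 9 with a mean of 2.94 CPM per kb over the 12 libraries. Below it came Nr3c2 (1.28), Tsc22d3 (1.13), Zbtb16 (0.748), Errfi1 (0.666), Pdk4 (0.538), Sult1a1 (0.413), Cdkn1a (0.279) and Fkbp5 (0.260 CPM per kb). Neighbours in this order were compared within libraries by a two-sided exact paired permutation test, adjusted over the 8 comparisons. Nr3c1 exceeded Nr3c2 in 12 of 12 libraries by 1.21 ± 0.36 on the log2 scale (SD, n = 12, exact adjusted p = 0.0039). Nr3c2 and Tsc22d3 were not separated (8 of 12 libraries, exact adjusted p = 0.054), nor were Zbtb16 and Errfi1 (7 of 12, exact adjusted p = 0.572) or Cdkn1a and Fkbp5 (7 of 12, exact adjusted p = 0.632). The other 4 pairs of neighbours differed, with exact adjusted p from 0.0078 to 0.018 in the permutation test. The order was taken from these same values, so these p are descriptive. Merged exon length was treated as exact, and Fkbp5, the last, had the longest (9421 bases).

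Nr3c1 (ENSMUSG00000024431.16, chromosome 18, 39543598 to 39652474, minus strand) encodes the glucocorticoid receptor. Its lowest, median and highest levels were 18.3, 23.4 and 28.2 CPM in libraries labelled TAAR5-KO and 18.7, 22.4 and 23.2 CPM in libraries labelled WT. NK2, NK3 and NK6 lay above all libraries labelled WT, and NK4, also labelled TAAR5-KO, had the lowest value of all 12. Between labels the difference was 0.12 on the log2 scale (SE 0.10, 95% interval −0.08 to 0.33, adjusted p = 0.693), with means of 23.6 ± 3.51 and 21.6 ± 1.90 CPM (SD, n = 6 each). On the linear scale the interval reached from 5.52% lower (−5.52%) to 25.5% higher. With between 171 and 1020 counts per library it was the most deeply counted of the 9.

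Nr3c2 (ENSMUSG00000031618.14, chromosome 8, 77626070 to 77971641, plus strand) encodes the mineralocorticoid receptor, which binds corticosterone at lower concentrations than the glucocorticoid receptor does. It was counted at 6.33, 8.59 and 10.6 CPM (lowest, median, highest) in libraries labelled TAAR5-KO and at 6.63, 8.45 and 9.12 CPM in those labelled WT. The highest and the lowest value of all 12, in NK4 and NK3, both carried the TAAR5-KO label. In the fit Nr3c2 had a log2 difference of 0.02 (SE 0.12, 95% interval −0.21 to 0.25, adjusted p = 0.972). Its exons share 247 bases with Gm10649, a long non-coding RNA on the opposite strand, and the strand setting of the counting is not named, so reads of the pair could be mixed.

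Fkbp5 (ENSMUSG00000024222.19, chromosome 17, 28618068 to 28736501, minus strand) encodes a co-chaperone that lowers the affinity of the glucocorticoid receptor for its hormone and is itself induced by the receptor, which closes a feedback loop. Lowest, median and highest values were 1.72, 2.13 and 3.06 CPM in libraries labelled TAAR5-KO against 2.35, 2.69 and 2.85 CPM in those labelled WT. NK2, NK4, NK5 and NK6 lay below every library labelled WT, but NK1 had the highest value of all 12. The fitted log2 difference came to −0.22 (SE 0.15, 95% interval −0.52 to 0.07, adjusted p = 0.590), with means of 2.28 ± 0.510 and 2.63 ± 0.213 CPM (SD, n = 6 each). Without NK1 the log2 fold change was −0.31 at an unadjusted p of 0.0407 in the refitted likelihood ratio test (adjusted p = 0.520), the lowest p that this gene had in any setting.

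Tsc22d3 (ENSMUSG00000031431.14, chromosome X, 139440277 to 139501408, minus strand), whose product GILZ mediates part of the anti-inflammatory action of glucocorticoids, was counted at 3.57, 4.54 and 5.51 CPM (lowest, median, highest) in libraries labelled TAAR5-KO. In libraries labelled WT the values were 4.62, 5.01 and 6.52 CPM. NK1, NK3 and NK5 lay below all libraries labelled WT, and NK11, labelled WT, stood highest. For Tsc22d3 the fit gave −0.17 on the log2 scale (SE 0.13, 95% interval −0.43 to 0.10, adjusted p = 0.668).

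Pdk4 (ENSMUSG00000019577.7, chromosome 6, 5483351 to 5496309, minus strand) encodes a kinase that shuts down pyruvate dehydrogenase and so spares glucose. It showed 1.36, 1.72 and 2.19 CPM in libraries labelled TAAR5-KO and 1.73, 2.02 and 2.54 CPM in libraries labelled WT as lowest, median and highest value. Again 3 libraries labelled TAAR5-KO (NK2, NK4 and NK5) lay below all labelled WT, and NK11 was the highest. Pdk4 had a fitted log2 difference of −0.23 (SE 0.16, 95% interval −0.54 to 0.09, adjusted p = 0.612).

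Sult1a1 (ENSMUSG00000030711.17, chromosome 7, 126272037 to 126275604, minus strand) encodes a sulfotransferase for phenols, catecholamines among them. It had the smallest unadjusted p of the 9 (likelihood ratio test, 0.0719) and the lowest counts, between 5 and 27 per library. Lowest, median and highest values were 0.536, 0.677 and 0.938 CPM in libraries labelled TAAR5-KO and 0.433, 0.579 and 0.657 CPM in those labelled WT. NK2, NK5 and NK6 lay above all libraries labelled WT. Its log2 difference of 0.42 had an SE of 0.24 and a 95% interval of −0.04 to 0.88 (adjusted p = 0.476 in the likelihood ratio test), which on the linear scale extends to 84.1% higher. Counting alone would give a coefficient of variation of 31.9% at this depth, more than the 19.8% found within labels, so differences between single libraries were not detectable. Its exons share 61 bases with Sgf29 on the opposite strand.

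Cdkn1a (ENSMUSG00000023067.15, chromosome 17, 29309950 to 29319701, plus strand) encodes an inhibitor of cyclin-dependent kinases. The lowest, median and highest values were 0.547, 0.943 and 1.18 CPM in libraries labelled TAAR5-KO and 0.786, 1.15 and 1.43 CPM in libraries labelled WT. NK2 and NK4 were below all libraries labelled WT. The fit gave Cdkn1a a log2 difference of −0.31 (SE 0.25, 95% interval −0.81 to 0.18, adjusted p = 0.670) from 7 to 63 counts per library. Its exons share 273 bases with Dino, a transcribed region on the opposite strand, so the same uncertainty about strand applies.

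Errfi1 (ENSMUSG00000028967.11, chromosome 4, 150938376 to 150953349, plus strand) encodes a feedback inhibitor of the epidermal growth factor receptor. Values of 1.76, 2.45 and 2.68 CPM (lowest, median, highest) in libraries labelled TAAR5-KO stood against 1.93, 2.51 and 2.77 CPM in those labelled WT, with NK1 the lowest of all 12. Errfi1 differed by −0.07 on the log2 scale (SE 0.14, 95% interval −0.35 to 0.20, adjusted p = 0.897).

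Zbtb16 (ENSMUSG00000066687.6, chromosome 9, 48565597 to 48747522, minus strand) encodes the transcriptional repressor PLZF. In libraries labelled TAAR5-KO the lowest, median and highest values were 2.17, 3.95 and 6.74 CPM, and in libraries labelled WT 2.41, 3.23 and 6.07 CPM. High values were found under both labels, in NK6, NK11 and NK12, and low values likewise, in NK4 and NK9. The labels differed by −0.0028 on the log2 scale (SE 0.26, 95% interval −0.51 to 0.51, adjusted p = 0.996), so the interval spans 29.8% lower (−29.8%) to 42.0% higher.

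**Figure D2:**
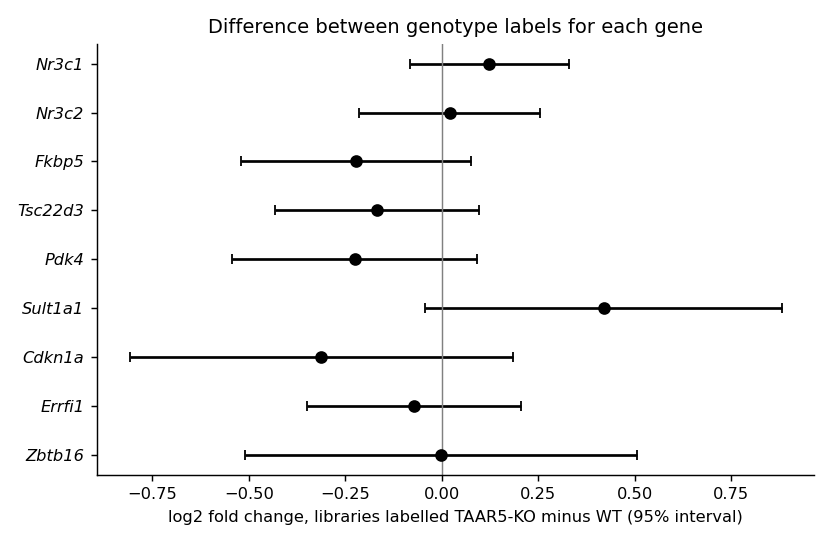
Log2 fold change of each gene (x axis, libraries labelled TAAR5-KO minus WT) from the edgeR likelihood ratio fit, with 95% intervals as bars. All 9 intervals include 0, and they are widest for Zbtb16, Cdkn1a and Sult1a1.

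Among the 9, the spread between libraries was greatest for Zbtb16. Its biological coefficient of variation, the square root of edgeR's dispersion, was 0.287, above that of 98.8% of the 500 features nearest to it in level. The same share was 66.2% for Nr3c1, 71.2% for Nr3c2, 28.6% for Fkbp5, 71.4% for Tsc22d3, 13.8% for Pdk4, 70.2% for Cdkn1a and 10.0% for Errfi1. For Sult1a1 the estimate was close to 0 (0.0099) at its low counts. Within labels, CPM of Zbtb16 varied by 39.2%, against 11.9% from counting alone.

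The genes whose log2 CPM followed each of the 9 most closely over the 12 libraries were then listed among 4609 features with a mean of at least 5 CPM. The nearest to Zbtb16 were Fmn1 (Pearson's r = 0.95) and Hecw1 (r = 0.95), and to Nr3c1 they were Ap2b1 (r = 0.96) and Sh3gl2 (r = 0.92). For Nr3c2 they were Caprin1 (r = 0.87) and Kansl1 (r = 0.83), for Fkbp5 Ankrd6 (r = 0.86) and Eif4e2 (r = 0.83), and for Tsc22d3 Pdk1 (r = 0.81) and Cluh (r = 0.79). Pdk4 was nearest to Ube2e2 (r = 0.82) and Kcnc2 (r = 0.82), and Sult1a1 to Vps35 (r = 0.89) and Tdrd3 (r = 0.86). Cdkn1a was nearest to Nkrf (r = 0.76) and Brk1 (r = 0.75), and Errfi1 to Rusc1 (r = 0.88) and Cyp46a1 (r = 0.86). These genes were picked for their r out of 4609, all values share library scaling, and no test is attached. More than 0.8 was reached by 215 of the 4609 features with Zbtb16, by 84 with Nr3c1 and by 22 with Errfi1, and by at most 5 with each of the remaining 6.

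Zbtb16 followed markers of cortical pyramidal neurons, a cell type of the tissue that was taken off in the dissection. The list, added after the data were seen and therefore not tested, held Slc17a7, Neurod6, Neurod2, Tbr1 and Emx1, and all 5 were counted above 0 on average in these libraries (0.403 CPM for Emx1 to 30.5 CPM for Slc17a7). Their summed CPM ran from 23.8 to 84.5 in libraries labelled TAAR5-KO and from 28.3 to 93.2 in those labelled WT. With log2 CPM of Zbtb16 it had an r of 0.88 over the 12 libraries, and 0.89 after the mean of each label was removed. Single markers ranged from r = 0.81 for Neurod6 to r = 0.91 for Emx1. Nr3c1 had an r of 0.77 with the same sum (0.85 within labels), Pdk4 0.53, Errfi1 0.49 and Cdkn1a 0.15, whereas Tsc22d3 (0.0063), Sult1a1 (−0.08), Fkbp5 (−0.17) and Nr3c2 (−0.30) were near 0 or negative. In bulk RNA, fewer cells of a type and less RNA per cell cannot be told apart. When the log2 sum was added to the fit as a covariate, also after the data were seen, the SE of Zbtb16 was 0.16 in place of 0.26 and that of Nr3c1 0.076 in place of 0.10. Both genes already followed this sum (r = 0.88 and 0.77), so the smaller SEs follow from that and test nothing. The log2 fold changes were then 0.12 for Zbtb16 (adjusted p = 0.777) and 0.15 for Nr3c1 (adjusted p = 0.309), and 0 of the 9 genes were called by the likelihood ratio test. Of the 9, Nr3c1 alone had an unadjusted p under 0.05 in that test (0.0444), as did 2162 of all 13902 features.

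**Figure D3:**
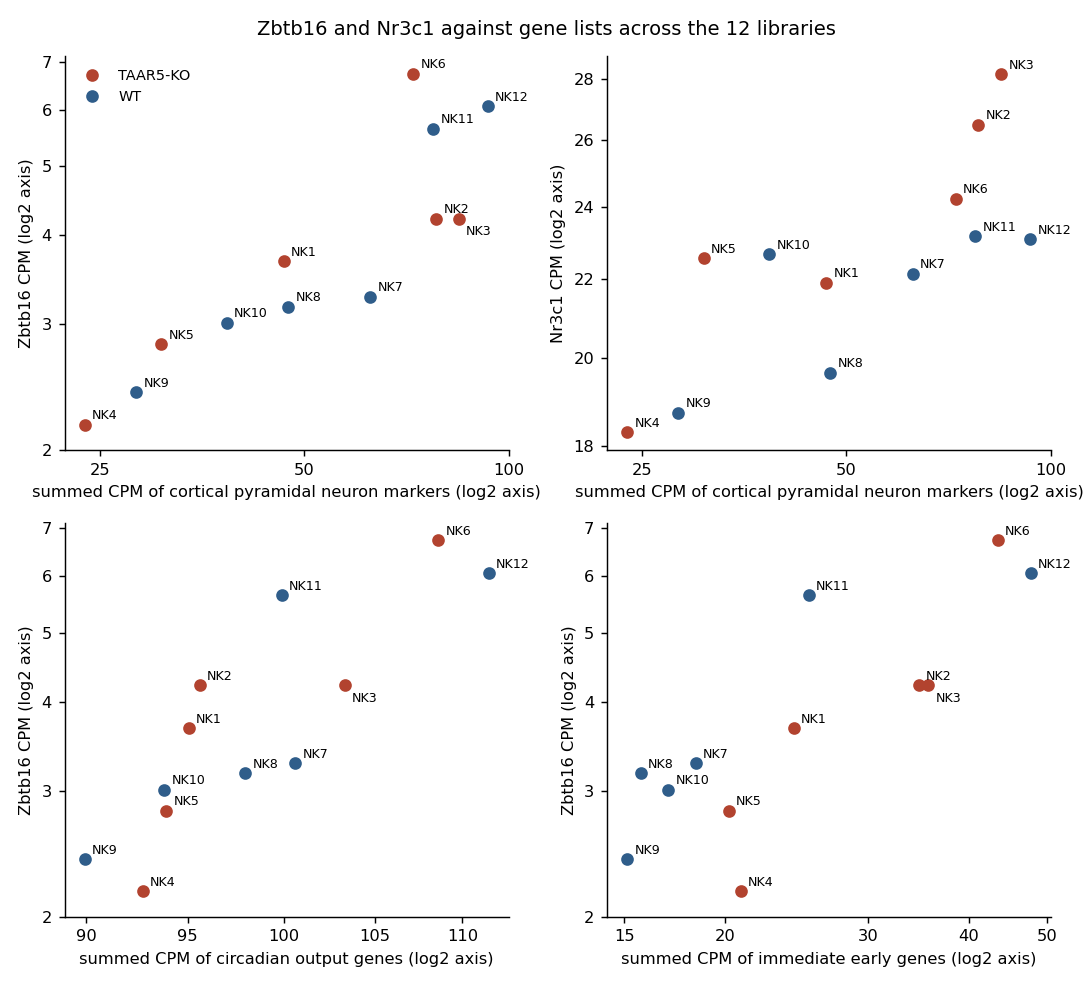
CPM of Zbtb16 (3 panels) and Nr3c1 (upper right) on log2 axes against the summed CPM of cortical pyramidal neuron markers, circadian output genes and immediate early genes, 1 point per library, red for TAAR5-KO and blue for WT labels. Libraries with more cortical marker counts have more Zbtb16 (r = 0.88) and more Nr3c1 (r = 0.77), with both labels mixed along the trend.

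Correlations of the 9 genes with the ribosomal RNA share and with 8 marker lists were computed as 1 family of 81. After adjustment 1 was under 0.05, that of Zbtb16 with the summed CPM of circadian output genes (Pearson's r = 0.85, permutation p = 0.00032, adjusted p = 0.0259; Spearman's rho = 0.86, permutation p = 0.00049, adjusted p = 0.0397, n = 12). The r was 0.71 without the 2 libraries farthest from the median of the list, 0.87 among libraries labelled TAAR5-KO and 0.85 among those labelled WT. The members of that list did not move alike, since Zbtb16 had an r of 0.85 with Hlf, the most abundant of the 10, 0.65 with Bmal1, 0.05 with Per2 and −0.59 with Dbp. With the immediate early genes, which neuronal activity induces, Zbtb16 had an r of 0.82 (permutation p = 0.00142, adjusted p = 0.0575; rho = 0.81, permutation p = 0.00219, adjusted p = 0.0887), or 0.65 without the 2 farthest libraries and 0.89 after removal of the label means. Single members ranged from r = 0.33 for Egr2 to r = 0.86 for Egr1. The cortical markers moved with Zbtb16 to a like degree, and the part of each list in the other's relation was not tested. With the ribosomal RNA share, the 9 genes had r from −0.54 (Errfi1) to 0.55 (Sult1a1), with adjusted permutation p from 0.425.

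The 36 pairs among the 9 genes gave no correlation that passed adjustment. The smallest permutation p belonged to Nr3c1 and Zbtb16 (r = 0.65, p = 0.0216, adjusted p = 0.483; rho = 0.77, permutation p = 0.00481, adjusted p = 0.173, n = 12), with r = 0.68 among libraries labelled TAAR5-KO and 0.74 among those labelled WT. The receptors Nr3c1 and Nr3c2 had an r of −0.59 (permutation p = 0.0447, adjusted p = 0.483; rho = −0.37, permutation p = 0.236, adjusted p = 0.774). That relation rests on a pair of libraries, since r was −0.12 without the 2 farthest from the median of Nr3c1, and it was −0.96 under the TAAR5-KO label but 0.15 under the WT label. Fkbp5 and Pdk4 had an r of 0.45 (permutation p = 0.138, adjusted p = 0.708; rho = 0.45, permutation p = 0.145, adjusted p = 0.690), or 0.40 without the 2 farthest libraries and 0.29 after removal of the label means. The number of genes above their own median ran from 1 of 9 in NK5 to 8 of 9 in NK6, both labelled TAAR5-KO.

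For the rest of the pathway, 3 lists were examined in the same fit, in which 1.65% of all features were called. Of 26 further target genes 20 were tested and 0 were called by the likelihood ratio test. Positive log2 fold changes were found for 7 and negative for 13, with a median of −0.10. Per1, a clock gene with response elements of its own, had 5.43 ± 0.489 and 4.99 ± 0.377 CPM (SD, n = 6 each) in libraries labelled TAAR5-KO and WT, which differ by 0.10 on the log2 scale (SE 0.10, adjusted p = 0.772). The kinase gene Sgk1 had 0.09 (SE 0.16, adjusted p = 0.887), the phosphatase gene Dusp1 0.33 (SE 0.25, adjusted p = 0.655) and the transcription factor gene Klf9 −0.02 (SE 0.10, adjusted p = 0.959). At an unadjusted p under 0.05 in that test there were 3 of the 20, namely Rgs2, Mfsd2a and Bcl6, beside 11.9% of all 13902 features. Rgs2, a regulator of G protein signalling, had 10.7 ± 0.880 against 8.89 ± 0.984 CPM (SD, n = 6 each), which differ by 0.28 on the log2 scale (SE 0.098, adjusted p = 0.157), and it was past the threshold without NK9 and with the cortical covariate. Mfsd2a, a lipid transporter of the blood–brain barrier, differed by −0.52 on the log2 scale (SE 0.26, adjusted p = 0.386), and Bcl6, a transcriptional repressor, had −0.29 (SE 0.15, adjusted p = 0.412). The 6 targets that did not pass the filter were Map3k6, Cebpd, Cebpb, Angptl4, Lcn2 and Anxa1, none with more than 13 counts in a library.

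All 18 chaperones and coregulators of the receptors were tested and 0 were called by the likelihood ratio test, with 10 positive and 8 negative log2 fold changes and a median of 0.01. At an unadjusted p under 0.05 there were 0, and the smallest adjusted p was that of the chaperone gene Hspa4 (0.475). Of 9 genes for steroid supply and corticotropin-releasing signals, 7 were tested and 0 were called, with 4 positive and 3 negative values, a median of 0.07 and 0 at an unadjusted p under 0.05. The smallest adjusted p in that list was 0.487 for Abcb1a, an efflux pump of the blood–brain barrier that carries steroids. Hsd11b1, whose enzyme regenerates corticosterone from its inactive form, differed by −0.12 on the log2 scale (adjusted p = 0.933). Hsd11b2, whose enzyme does the opposite, did not pass the filter and had at most 3 counts in a library. The quasi-likelihood test of edgeR and DESeq2 also called 0 of the 45 tested genes of the 3 lists, and at an unadjusted p under 0.05 each had 2. Of all 13902 features, 1670 and 1352 were under that value in these 2 tests. DESeq2 gave no adjusted p for 7009 of the 13902, and a list gene among these could not be called by it.

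**Figure D4:**
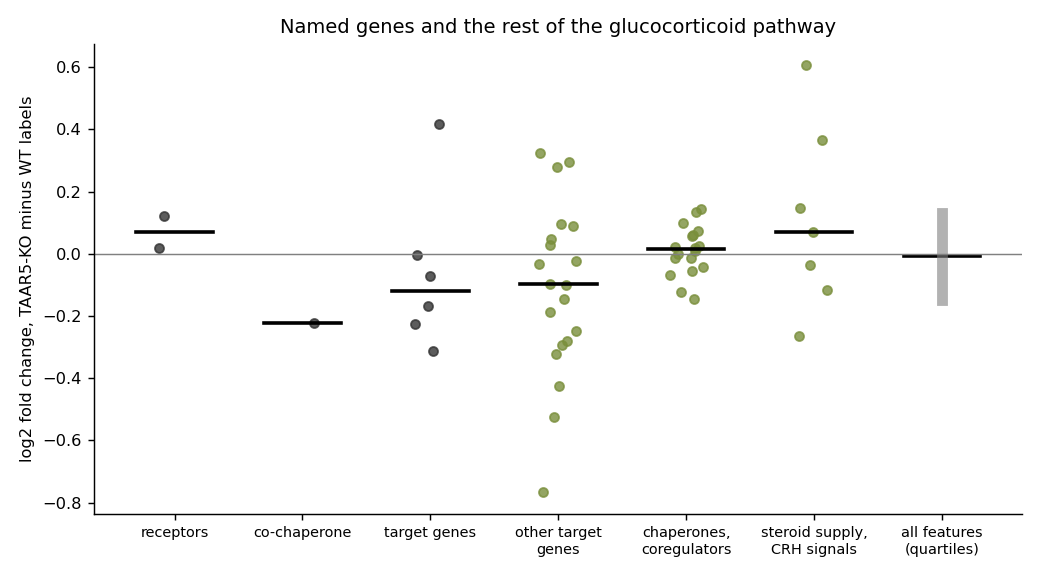
Log2 fold change (y axis, libraries labelled TAAR5-KO minus WT) of the 9 genes by role (grey points) and of the 3 further pathway lists (green points), with the median of each group as a black line. The last column gives the median (−0.01) and the quartiles (grey bar, −0.15 to 0.13) of all features.

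Total counts ran from 11269915 to 34824450 per library, of which ribosomal RNA took 64.3% to 88.1%, so that 1819907 to 6399188 counts remained for other features. The library sizes behind CPM include ribosomal RNA, and the TMM factors ran from 0.375 to 2.47. The number of features with at least 1 count ran from 21448 to 26145 under the TAAR5-KO label and from 24024 to 28441 under the WT label (two-sided exact permutation p = 0.0238, not adjusted). The same permutation test gave p = 0.130 for total counts, 0.312 for the ribosomal RNA share, 0.976 for the other counts and 0.364 for the TMM factor. A floor of 3 counts corresponded to between 0.0679 and 0.362 CPM. Medium spiny neuron markers, the defining genes of striatal projection neurons, were all counted in every library, with sums of 333 to 431 CPM under the TAAR5-KO label and 196 to 370 CPM under the WT label (exact permutation p = 0.0260, adjusted over 8 lists 0.208). The other lists had adjusted exact permutation p from 0.372 to 0.842. Their sums under the TAAR5-KO and WT labels were 1056 to 1253 and 1158 to 1367 CPM for astrocytes, 418 to 465 and 366 to 524 CPM for oligodendrocytes, and 7.74 to 9.93 and 7.04 to 9.62 CPM for endothelium. They were 4.22 to 10.0 and 5.37 to 10.4 CPM for leptomeninges, 2.76 to 471 and 3.78 to 287 CPM for choroid plexus, 20.2 to 43.5 and 15.1 to 47.7 CPM for immediate early genes, and 92.7 to 108.6 and 89.9 to 111.5 CPM for circadian output. The astrocyte sum was mostly Slc1a2 (941 and 970 CPM on average, log2 difference −0.04). Gene by gene, all 8 astrocyte markers had negative log2 differences with a median of −0.25, 5 of them at an unadjusted p under 0.05 in the likelihood ratio test. All 9 medium spiny neuron markers were positive (median 0.32, 4 under 0.05), as were 6 of 7 tested immediate early genes (0.60, 3). Negative were all 6 choroid plexus markers (−0.53, 0), 7 of 8 of oligodendrocytes (−0.13, 2) and 4 of 5 tested of leptomeninges (−0.30, 1). Endothelium had 6 of 9 positive and circadian output 6 of 10. Of all 13902 features tested, 11.9% were under 0.05. Among the genes of these lists, Gja1 of astrocytes (adjusted p = 0.0566) and Nr1d1 of circadian output (adjusted p = 0.0812) were called lower under the TAAR5-KO label by the likelihood ratio test. Their part in the values of the 9 genes was not tested.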

How the data were processed

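Striatal RNA of 6 TAAR5-KO and 6 WT mice was depleted of ribosomal RNA, made into directional libraries and read from a single end. According to the processing notes and the study's methods, reads were trimmed with cutadapt 4.1, aligned with STAR 2.7.11b to GRCm39 and counted on GENCODE genes with featureCounts 2.0.6. The authors deposited raw counts per gene, not normalized and not pooled, and other values such as the merged exon length per gene. How strand and multi-mapping reads were handled is not given in the sources used here. The 12 columns stood as 6 replicates of each label, and 12 columns of other libraries were not used. Beyond the use of littermates of both sexes, nothing says how the animals were allotted. The p-values set the difference between labels against the spread between these libraries.

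The 13902 features that reached 0.5 CPM in 3 or more libraries, on library sizes before TMM scaling, were scaled with TMM and compared with glmFit and glmLRT of edgeR 4.0.16 (R 4.3.3) without covariates, with Benjamini–Hochberg adjustment over all features and a threshold of 0.1. The study's methods name edgeR's likelihood ratio test, the CPM limit and the threshold. TMM, the library sizes behind the limit and the lack of covariates were chosen here, and with the limit on TMM library sizes 13053 features were tested, of which 234 and none of the 9 were called. The study reports the same number of features after its filter, and fewer differentially expressed genes than these 234. SE and 95% intervals come from the Fisher information of that fit. The quasi-likelihood test, DESeq2 1.42.0, other scalings, filters and thresholds, removal of ribosomal RNA features, removal of each library's loess trend on gene length or GC content, and leaving out each library were the alternatives. Sums over a list were compared by exact permutation of the labels (924 assignments, two-sided, smallest possible p 0.00216). Correlations used log2 CPM with a prior count of 2 and 100000 permutations. The fits and the permutation test were tested on simulated data. Intervals and floors cover counting error or the spread of these libraries only. The named genes were the 9, called genes of the pathway lists, Per1, Sgk1, Dusp1 and Klf9, the 2 nearest genes by r, and Taar5. Genes at an unadjusted p under 0.05 or with the smallest adjusted p, Hsd11b1, Hsd11b2 and the cortical markers were named after their values were seen. A further cortical marker is not reported here for a reason that does not concern its values, and the sums were computed without it. The 9 genes and all lists were chosen with earlier results of these data known.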

Additional observations from a re-analysis of the deposited data

Results flagged for a closer look

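In the 34 sets of 6 libraries examined (9 genes and 8 marker lists under each label), no library stood apart for any of the 9 genes by Dixon's ratio at the 95% level, and 2 list values did. Chance alone gives about 1 such value in 20 sets. NK11, labelled WT, had 195.7 CPM summed over the medium spiny neuron markers, lower than the other 5 libraries of its label. It was also the library with the highest Tsc22d3 and Pdk4. NK12, labelled WT, had 47.7 CPM summed over the immediate early genes, above the rest of its label, and it held the second highest Zbtb16.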

How the results depend on the processing

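None of the 9 genes was called under any of the 11 other settings, the 12 fits that left out 1 library or the fit with the cortical covariate. Of these settings, the stricter threshold of 0.05 on the main fit could add no call, and DESeq2 gave no adjusted p for 5 of the 9. Library size as the only scaling shifted the median of all features to −0.49, and on it Nr3c1 had −0.42, Nr3c2 −0.44 and Sult1a1 −0.053, each above that shift. Zbtb16 turned positive with DESeq2 (0.0040), RLE factors (0.0035), the length trend removed (0.024), the GC trend removed (0.11) and the cortical covariate (0.12), and ran from −0.25 to 0.17 when 1 library was left out. Nr3c2 was −0.0034 without a filter (all features −0.11), −0.0027 with the cortical covariate and −0.053 to 0.087 with 1 library left out. The pathway lists held 1 called gene, Rgs2, with the cortical covariate and without NK9, so 0 to 1 when 1 library was left out. The count over all features, 229, was 63 with the quasi-likelihood test, 7 with library size alone, 93 without a filter, 108 at an adjusted p under 0.05, 86 with the GC trend removed and 684 with the cortical covariate, and 85 (without NK11) to 415 (without NK4) with 1 library left out. On library size alone the log2 ratio of the list sums turned to −0.19 for medium spiny neurons, −0.42 for endothelium and −0.33 for immediate early genes. The causes were not tested. No paired analysis was possible because the columns carry no animal number. With 5 to 27 counts per library, depth limits Sult1a1 most.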

Other observations

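Of the 81 correlations of the 9 genes with marker lists and the ribosomal RNA share, 10 had an unadjusted permutation p under 0.05 for Pearson's r (n = 12), and only that of Zbtb16 with circadian output had an adjusted p under 0.05. Besides that one and the immediate early genes, Zbtb16 had an r of −0.65 with choroid plexus (permutation p = 0.0265, adjusted p = 0.268; rho = −0.69, permutation p = 0.0152, adjusted p = 0.246) and of −0.57 with medium spiny neurons (permutation p = 0.0432, adjusted p = 0.350; rho = −0.64, permutation p = 0.0308, adjusted p = 0.255). Without the 2 farthest libraries these were −0.75 and −0.43. Its r was also negative with oligodendrocytes (−0.43, adjusted permutation p = 0.514; rho = −0.41, adjusted permutation p = 0.557) and endothelium (−0.33, adjusted permutation p = 0.672; rho = −0.24, adjusted permutation p = 0.764).

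Nr3c1 had an r of −0.71 with choroid plexus (permutation p = 0.0101, adjusted p = 0.174; rho = −0.62, permutation p = 0.0341, adjusted p = 0.255), or −0.76 without the 2 farthest libraries. With immediate early genes it had 0.69 (permutation p = 0.0135, adjusted p = 0.182; rho = 0.72, permutation p = 0.0109, adjusted p = 0.220), or 0.82 without the 2. Tsc22d3 had −0.72 with medium spiny neurons (permutation p = 0.0095, adjusted p = 0.174; rho = −0.55, permutation p = 0.0714, adjusted p = 0.413), or −0.70 without the 2. Pdk4 had −0.66 with the same list (permutation p = 0.0212, adjusted p = 0.245; rho = −0.50, permutation p = 0.102, adjusted p = 0.496), which rests on those 2 libraries, since r was −0.10 without them. Sult1a1 had −0.69 with leptomeninges (permutation p = 0.0107, adjusted p = 0.174; rho = −0.74, permutation p = 0.0072, adjusted p = 0.194), or −0.59 without the 2. Errfi1 had 0.62 with circadian output (permutation p = 0.0306, adjusted p = 0.276; rho = 0.67, permutation p = 0.0203, adjusted p = 0.255), or 0.63 without the 2.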
